A study of Rattus norvegicus with 45 samples.

Results

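The genes described here code for proteins that the liver releases into the plasma: albumin and other carriers, apolipoproteins, fibrinogen, clotting factors and their inhibitors, complement components and acute phase proteins. They were taken from a list of gene symbols, and each was represented by the probe set of highest mean among those listed with that gene alone. Of the 46 genes named, 42 could be measured, among 14217 genes with such a probe set on the array. F7 and F11 had no probe set listed, and Kng1 and Cfb had 1 and 4 probe sets that are each shared with other genes. One of the 42 genes, Rgn, codes for regucalcin, a calcium-binding enzyme of the hepatocyte cytosol that is not a plasma protein. Rgn is described apart but is included in the counts of members.

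Liver RNA of adult male Sprague-Dawley rats, aged 10 weeks and dosed by gavage, was hybridised to Affymetrix Rat Genome 230 2.0 arrays. By the sample titles there were 9 groups of 5 arrays, with livers taken 6 h, 24 h or 14 days into dosing from control, myclobutanil and triadimefon rats. Both compounds are triazole fungicides, and the doses of 225 mg/kg/day for myclobutanil and 175 mg/kg/day for triadimefon were stated for the series and not for each sample. The series text speaks of 15 livers with 5 biological replicates per treatment and the labelling protocol of 3 rats per group, whereas the titles and the value columns give 45 arrays, which were followed here. What the control rats received was not given in the sources used here. No genotype, transgene or pooling was named in the labels. The p-values measure the spread between these arrays, and arrays from a shared animal would not be independent.

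Hepatocytes make nearly all of these proteins, and their transcripts are among the most abundant of the liver. During inflammation, interleukin-6 acting through STAT3, with interleukin-1 and C/EBP factors, raises positive acute phase genes such as those of fibrinogen, haptoglobin, alpha-1-acid glycoprotein and, in the rat, alpha-2-macroglobulin, while negative acute phase genes such as albumin and fetuin A are lowered. Lipopolysaccharide-binding protein and CD14 act together in sensing bacterial lipopolysaccharide, and CD14 is made by macrophages as well as by hepatocytes.

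The deposited values are scores on a log-type scale whose base is not given, so differences are in score units and no fold is given. The 42 genes had mean scores from -0.02 (Lcn2) to 4.88 (Alb), and 33 of them lay above 3, a level at which the arrays differed in their overall scaling. The 99th percentile of an array ran from 2.69 to 3.52, and the median score of the 42 genes on an array from 3.47 to 4.52 as deposited. Within groups the median SD of a member was 0.253 as deposited and 0.0488 after quantile normalization, which gives every array the same distribution. Quantile normalized values are therefore the main ones, and the result as deposited stands beside the calls of members in the treatment comparisons. This choice has a limit for such bright genes: 24 of the 41 genes that can still be tested had a median rank within the 100 brightest probe sets, where normalization by rank leaves little room to move. Alb was the brightest probe set on all 45 arrays, so its normalized score was 4.88 throughout and it could not be tested on that scale.

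**Figure D1:**
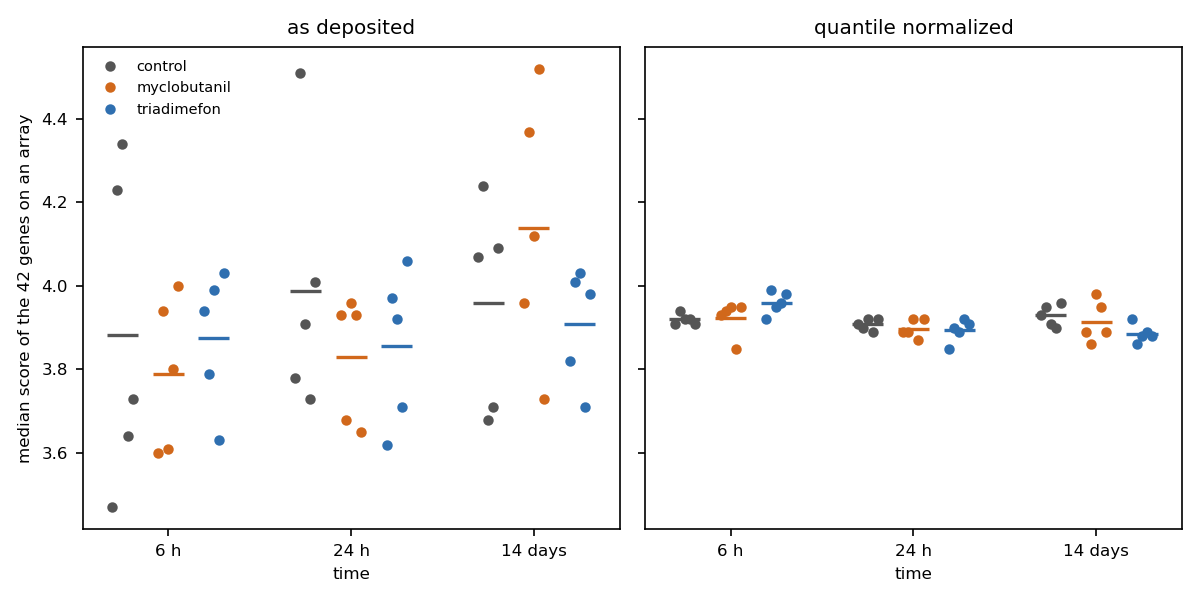
Median score of the 42 genes on each array (vertical axis, score) by time, as deposited on the left and quantile normalized on the right; each point is 1 array, colours give control, myclobutanil and triadimefon, and lines are group means (n = 5). As deposited the arrays run from 3.47 to 4.52, and after normalization from 3.85 to 3.99.

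One array stood apart among the controls at 24 h. Control array 2 at 24 h had a member median of 4.51 and a 99th percentile of 3.52, the highest percentile of all 45 arrays. Without it the median difference of genes with mean score above 2 at 24 h, as deposited, went from -0.156 to -0.062 for myclobutanil and from -0.172 to -0.075 for triadimefon. Members called as deposited at 24 h are given with and without that array. Single differences of all other genes and probe sets as deposited at 24 h are given only with it. The tissue label was checked against 13 measured hepatocyte markers, whose mean normalized score was 3.37 to 3.49 in the 9 groups. At 24 h 4 of the 13 fell with myclobutanil, Cps1 most, by 0.22 (adjusted p = 2e-06), and the list mean was 3.35 to 3.41 on those arrays and 3.40 to 3.53 on the controls. With triadimefon 3 fell and 1 rose at that time, and at 14 days 3 fell and 1 rose, with 1 lower under myclobutanil. At 6 h Slc10a1 fell by 0.14 with triadimefon (limma adjusted p = 0.017). Among genes with mean score above 2 the shares called at 24 h were 31.9% with myclobutanil and 28.3% with triadimefon. At 14 days they were 6.03% and 25%, and at 6 h 11.9% with triadimefon. Of these hepatocyte marker calls only that of Otc with triadimefon at 24 h passed as deposited (adjusted p = 0.042). Neutrophil markers, 5 of which were measured, had group means between -0.22 and -0.13. They were dim, from the 4.89 percentile of genes by mean score (Csf3r) to the 40.8 percentile (S100a9). Of the 5, 3 fell with myclobutanil at 24 h, S100a8 and S100a9 fell with triadimefon at 24 h (by 0.15 and by 0.21), and Cxcr2 fell with triadimefon at 14 days. Over all genes 6.03% were lower with myclobutanil and 6.34% with triadimefon at 24 h, and 5.39% with triadimefon at 14 days. As deposited Mmp8 with myclobutanil (limma adjusted p = 0.052) and S100a8 with triadimefon, both at 24 h, did not pass. The part of these markers in the results was not tested.

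At 6 h hardly any of the genes differed between treated and control livers. With myclobutanil 0 of 41 genes passed limma's test, and 0 had an unadjusted p under 0.05, on either scale. Over all genes 1.09% were higher and 0.703% lower (0.464% in either direction as deposited), and 5.78% of the genes with mean score above 2 were called. With triadimefon 1 of 41, Crp, was higher and 0 were lower, against 2.5% higher and 1.29% lower over all genes and 11.9% of genes with mean score above 2. As deposited 0 of 42 members were called for triadimefon at 6 h, where 1.22% of all genes were and 0 members had an unadjusted p under 0.05. The ending of the array file name also differed between the groups at 6 h. It was 12 on myclobutanil arrays 3 to 5 and triadimefon arrays 1 to 3, and on no control array. Ending and compound therefore cannot be fully told apart at this time.

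At 24 h more of the genes differed. The share of higher and lower calls depended on the scaling. With myclobutanil 1 gene was higher (F5) and 11 were lower, and the median difference of the 41 genes was -0.05. Among all genes 8.24% were higher and 6.03% lower, and 31.9% of the genes with mean score above 2 were called, close to the 29.3% of the 41 members, Rgn included. As deposited 0 members were higher and 3 lower, where 10.8% of all genes were called. Under cyclic loess 2 members were higher and 5 lower, and with a common 99th percentile 1 and 4. Without control array 2 only C6 remained called as deposited. With triadimefon 3 genes were higher (C5, F5 and Crp) and 6 were lower, with a median difference of -0.04. The background was 5.89% higher and 6.34% lower over all genes, and 28.3% called among genes with mean score above 2, against 22% of the members. As deposited 0 members were higher and 4 lower, with 10.9% of all genes called, and without control array 2 there were 0 calls as deposited. The split turned under cyclic loess, with 5 higher and 2 lower, and with a common 99th percentile, with 3 higher and 2 lower.

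At 14 days the compounds' counts were 2 and 9. With myclobutanil 1 gene was higher (Lbp) and 1 lower (Rgn), a count that became 0 without myclobutanil array 1 and 1 without control array 2, 3 or 4 or myclobutanil array 4. Over all genes 1.02% were higher and 0.556% lower, with 6.03% called among genes with mean score above 2. As deposited Lbp and Cd14 were higher and no member was lower, with 1.19% of all genes called. With triadimefon 3 genes were higher (Lbp, Cd14 and Proc) and 6 lower, against 5.96% higher and 5.39% lower over all genes and 25% called among genes with mean score above 2. As deposited 2 were higher, Lbp and Cd14, and 1 was lower, C6, with 8.22% of all genes called. Under cyclic loess 3 were higher and 4 lower, and with a common 99th percentile 4 and 7. A member share near that of other bright genes says nothing particular about these genes, and both compounds were compared with the same controls at each time.

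Across the 6 comparisons 20 genes were called at least once (48.8% of the 41) and 11 in more than 1 comparison (26.8%), and 21 were never called. Over all genes these shares were 30.2% and 10.8%, and over the 796 genes with mean score above 2 they were 59.3% and 31.2%. The largest difference among those 21 was 0.15. Treated and control arrays did not overlap, after normalization and in the order myclobutanil then triadimefon, for 0 and 1 of the 42 genes at 6 h, 9 and 8 at 24 h, and 2 and 9 at 14 days. Over all genes the shares without overlap were, in the same order, 3.11% and 4.78%, 11.7% and 8.55%, and 3.26% and 9.17%. Over genes with mean score above 2 they were 6.28% and 11.3%, 29.1% and 20.4%, and 9.3% and 17.7%. As deposited the member numbers were 0 and 0, 2 and 2, and 0 and 2, where 1.78% and 2.95%, 7.9% and 7.09%, and 3.76% and 9.58% of all genes did not overlap. Only 6 genes were called on both scales in the same comparison: C6, Cd14, Lbp, A2m, Rgn and F10.

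**Figure D2:**
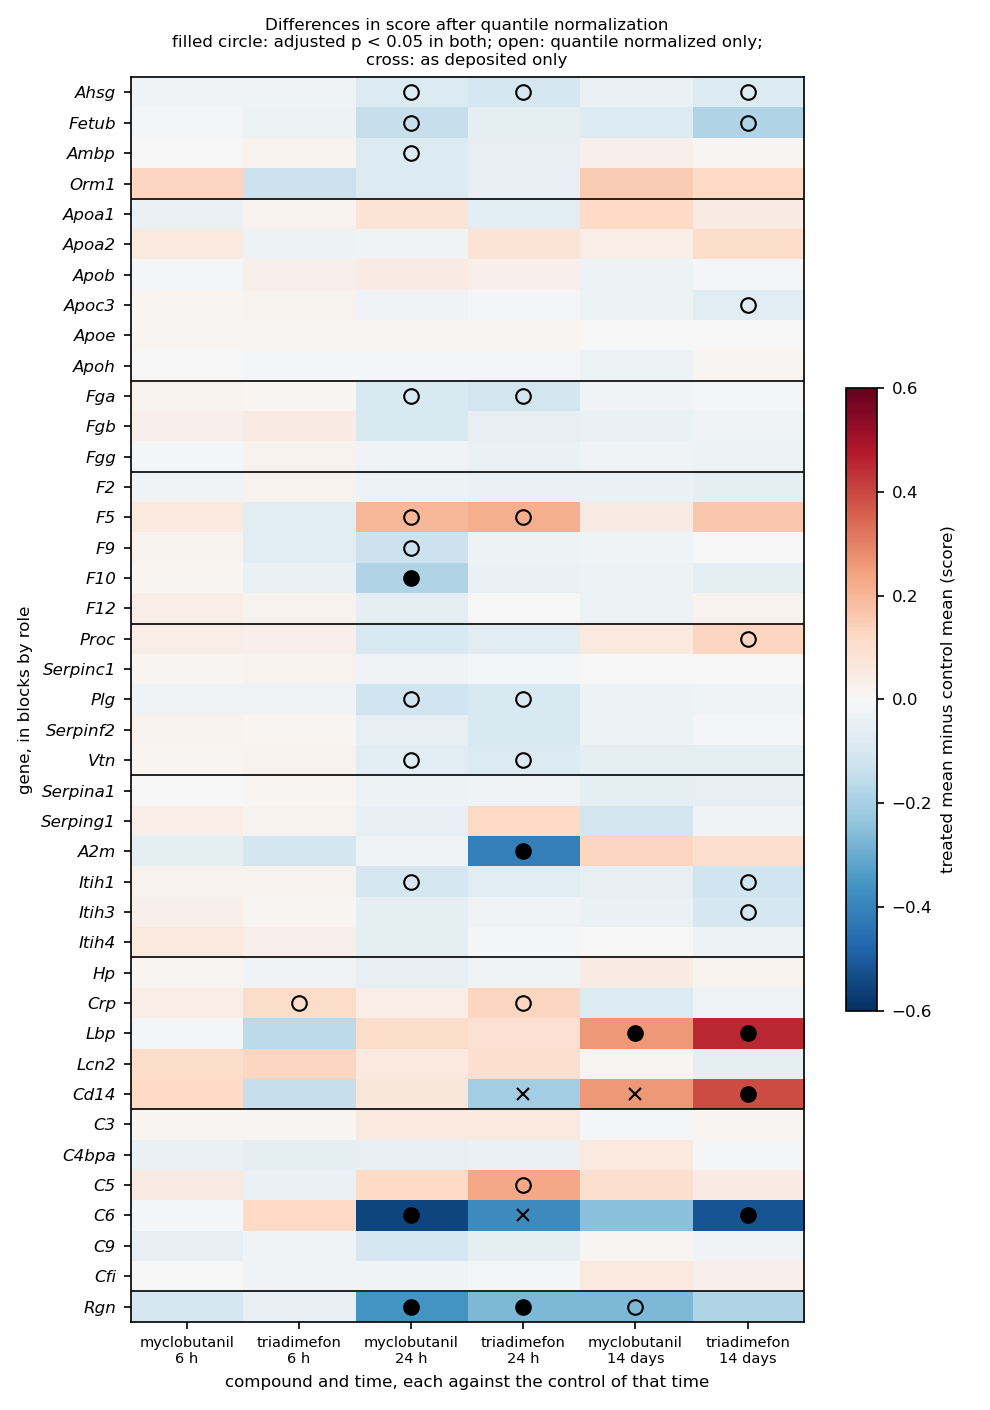
Difference in quantile normalized score between treated and control means (colour, score units) for 41 genes in rows, blocked by role, and the 6 comparisons in columns; filled circles mark an adjusted p under 0.05 both after normalization and as deposited, open circles after normalization only, and crosses as deposited only. The 6 genes with filled circles are F10, A2m, Lbp, Cd14, C6 and Rgn, and no circle stands in the myclobutanil column at 6 h.

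Among the carriers and fetuins, 3 of the 4 testable genes fell with myclobutanil at 24 h and 2 fell with triadimefon at 14 days after quantile normalization. Over all genes 6.03% were lower in the first of these comparisons and 5.39% in the second. Of genes with mean score above 2, 31.9% and 25% were called in either direction. None of the 24 h calls of the carriers and fetuins was made under cyclic loess or with a common 99th percentile. Alb, the main carrier and osmotic protein of plasma, could not be tested after quantile normalization and is given first as deposited. At 24 h the controls had Alb scores of 4.77, 5.69, 4.81, 4.67 and 4.99, the myclobutanil arrays 4.98, 4.56, 4.88, 4.93 and 4.47, and the triadimefon arrays 4.60, 5.0, 4.87, 4.54 and 5.05. The groups overlapped, and control array 2 was the highest. Alb differed from control by -0.22 under myclobutanil and -0.18 under triadimefon at 24 h, with limma adjusted p-values of 0.58 and 0.67. Under cyclic loess and under scaling to a common 99th percentile, Alb differences in the 6 comparisons ran from -0.17 to 0.09 and the lowest adjusted p was 0.21, so no change in Alb was detected.

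Fetub, which codes for fetuin B, a liver protease inhibitor of plasma, fell with myclobutanil at 24 h and with triadimefon at 14 days. Normalized Fetub scores at 24 h were 4.17, 4.16, 4.16, 4.19 and 4.10 in controls and 3.93, 3.97, 4.01, 3.97 and 4.19 with myclobutanil. Of those myclobutanil arrays 4 lay below every control and the fifth was level with the highest. The difference was -0.14 ± 0.03 (SE; limma adjusted p = 0.0051), and -0.32 as deposited (adjusted p = 0.23). Under cyclic loess it was -0.10 (adjusted p = 0.11) and with a common 99th percentile -0.10 (adjusted p = 0.25).

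At 14 days Fetub was 4.15, 4.11, 4.15, 4.20 and 4.16 in controls and 3.97, 4.06, 3.95, 3.96 and 3.90 with triadimefon. All triadimefon arrays lay below all controls, with a difference of -0.18 ± 0.03 (adjusted p = 0.00063; as deposited -0.23, adjusted p = 0.38). The myclobutanil arrays of that time were 4.11, 4.05, 3.97, 4.07 and 4.14, on both sides of the lowest control, and did not pass the test. Ahsg, which codes for fetuin A, the abundant calcium phosphate-binding relative of fetuin B, fell by 0.08 with myclobutanil and by 0.10 with triadimefon at 24 h, and by 0.08 with triadimefon at 14 days. Ambp, the precursor of alpha-1-microglobulin and bikunin, fell by 0.08 with myclobutanil at 24 h. None of these Ahsg and Ambp differences passed as deposited, with adjusted p-values of 0.37 to 0.55. Under cyclic loess and the common 99th percentile the Ahsg differences at 24 h were between -0.05 and -0.02, with adjusted p-values from 0.53 to 0.88, and Ambp differed by -0.03 in both (adjusted p = 0.68 and 0.83). At 14 days Ahsg differed by -0.11 under cyclic loess (adjusted p = 0.082) and by -0.20 with the common 99th percentile (adjusted p = 0.038).

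Orm1, which codes for alpha-1-acid glycoprotein, a positive acute phase protein, did not pass the test in any comparison. Its normalized scores at 14 days were 3.41, 3.50, 3.64, 3.46 and 3.55 in controls, 3.67, 3.76, 3.49, 3.88 and 3.54 with myclobutanil, and 3.68, 3.58, 3.69, 3.69 and 3.54 with triadimefon. All 3 groups overlapped. The Orm1 differences were 0.15 (95% interval -0.02 to 0.33, adjusted p = 0.46) and 0.12 (-0.05 to 0.30, adjusted p = 0.4). At 6 h they were 0.13 with myclobutanil and -0.13 with triadimefon, and at 24 h -0.08 and -0.05, with adjusted p-values from 0.56 to 0.8.

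Of the 6 apolipoprotein genes, which code for the protein parts of lipoprotein particles, 1 was called in 1 comparison. At least 1 call was made for 30.2% of all genes and 59.3% of genes with mean score above 2. Apoc3, whose product slows the clearance of triglyceride-rich particles, fell by 0.07 with triadimefon at 14 days (limma adjusted p = 0.049; as deposited -0.22, adjusted p = 0.48). This call was kept in 2 of 10 repeats that left out 1 array, those without control array 1 or triadimefon array 3, and the highest adjusted p was 0.11. The Apoc3 difference was -0.15 under cyclic loess (adjusted p = 0.027) and -0.24 with the common 99th percentile (adjusted p = 0.017). Apoa1, Apoa2, Apob, Apoe and Apoh were not called at any time, with the whole family between -0.07 and 0.12. Apob has a second, dimmer probe set of mean score 0.81, which disagreed with the brighter one at 24 h. That probe set rose by 0.50 (adjusted p = 0.00042) under myclobutanil and by 0.32 (adjusted p = 0.036) under triadimefon, and its values as deposited were 0.47 (adjusted p = 0.0015) and 0.27 (adjusted p = 0.084).

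The 3 fibrinogen chains are positive acute phase genes, and by their brightest probe sets none rose at any time. Fga, the alpha chain gene, fell at 24 h with both compounds after quantile normalization. On these probe sets Fgb and Fgg, the beta and gamma chain genes, passed the test nowhere. The controls at 24 h had normalized Fga scores of 4.07, 4.12, 4.16, 4.12 and 4.09. The myclobutanil arrays had 4.09, 3.97, 4.08, 3.96 and 4.0, and the triadimefon arrays 4.02, 4.04, 3.94, 4.07 and 3.93. All treated Fga values lay below the control mean of 4.11, and each treated group touched or passed the lowest control.

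The Fga difference was -0.09 (adjusted p = 0.044) under myclobutanil and -0.11 (adjusted p = 0.014) under triadimefon, and as deposited it was -0.27 and -0.25 (adjusted p = 0.32 and 0.36). Under cyclic loess it was -0.06 and -0.04 (adjusted p = 0.34 and 0.58), and with the common 99th percentile -0.05 and -0.02 (adjusted p = 0.56 and 0.82), so both calls depend on the normalization. The myclobutanil call was kept in 3 of 10 repeats that left out 1 array, and the triadimefon call was lost without triadimefon array 3 or 5, where the highest adjusted p was 0.06. A second Fga probe set of mean score 2.83 differed by -0.28 with triadimefon at 24 h (adjusted p = 0.017), by -0.44 as deposited (adjusted p = 0.012), and by -0.29 at 14 days (adjusted p = 0.015). The brighter Fga probe set differed by -0.01 at 14 days, so the 2 probe sets did not match there.

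Fgb at 24 h was 4.28, 4.27, 4.27, 4.31 and 4.30 in controls, 4.20, 4.16, 4.23, 4.15 and 4.25 with myclobutanil, and 4.16, 4.27, 4.16, 4.36 and 4.26 with triadimefon. The Fgb scores of the myclobutanil arrays all lay below the controls, with a difference of -0.09 that missed the threshold (adjusted p = 0.095), and the triadimefon arrays fell on both sides. Fgg at 24 h was 4.35, 4.36, 4.38, 4.38 and 4.35 in controls, 4.35, 4.34, 4.35, 4.33 and 4.35 with myclobutanil, and 4.33, 4.34, 4.29, 4.34 and 4.30 with triadimefon. The triadimefon arrays lay just below the controls for Fgg (-0.04, 95% interval -0.09 to 0.00, adjusted p = 0.22). The dimmer Fgb probe sets had mean scores of -0.19 and -0.37, and the second of them rose at 24 h with both compounds. With myclobutanil it rose by 0.12 (adjusted p = 0.0004), and by 0.11 as deposited (adjusted p = 0.0065). With triadimefon it rose by 0.08 (adjusted p = 0.025), a call not made as deposited (0.08, adjusted p = 0.06).

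**Figure D3:**
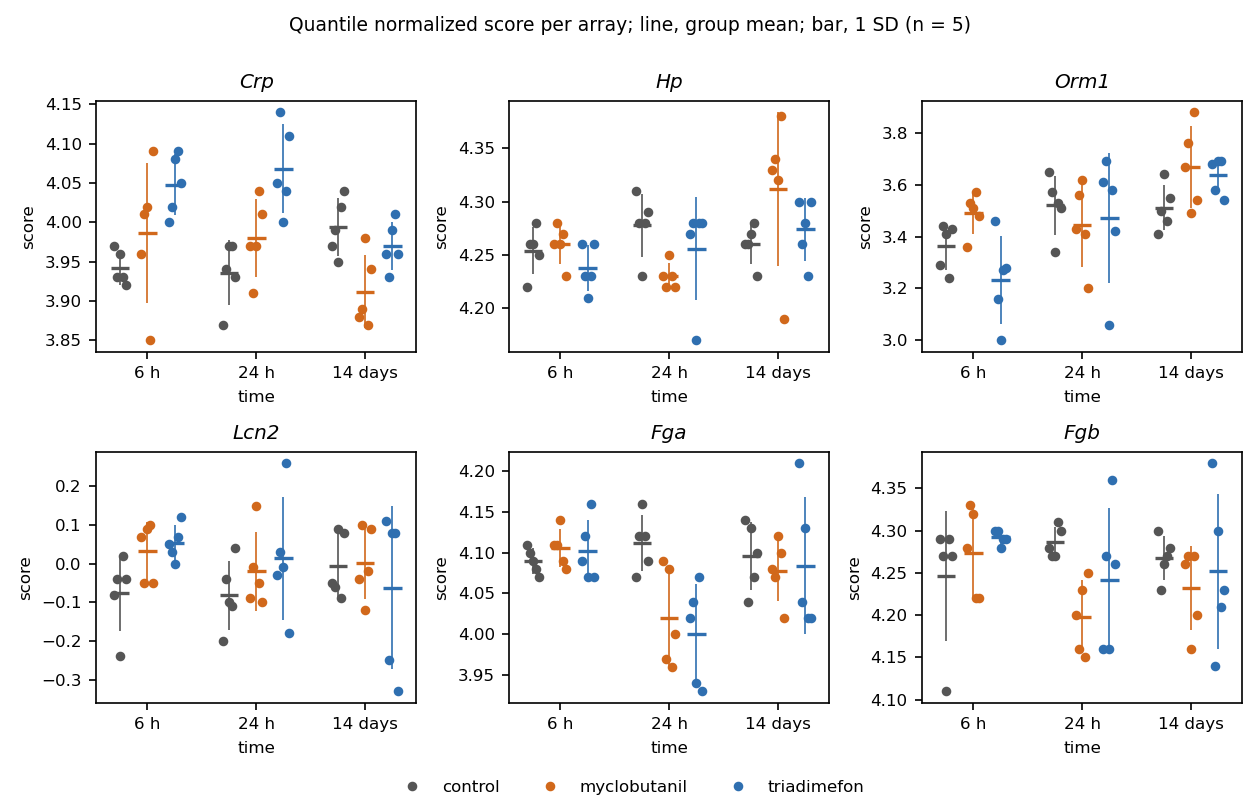
Quantile normalized score of 6 acute phase genes on each array (vertical axes, score, each panel with its own range) by time (horizontal axes); points are arrays, lines group means and bars 1 SD (n = 5), with colours for control, myclobutanil and triadimefon. Crp with triadimefon stands above control at 6 h and 24 h, Fga with both compounds lies lower at 24 h on this scale, and Orm1, Hp and Lcn2 overlap with control throughout.

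Of the 5 measured clotting factor genes, F2, which codes for prothrombin, and F12 were not called. At least 1 call was made for 30.2% of all genes and 59.3% of genes with mean score above 2. F10 codes for factor X, the protease that turns prothrombin into thrombin. Its normalized scores at 24 h were 2.93, 2.98, 2.97, 2.96 and 2.93 in controls, 2.73, 2.72, 2.78, 2.83 and 2.82 with myclobutanil, and 2.82, 2.91, 2.94, 2.93 and 2.95 with triadimefon. Every myclobutanil array was below every control, while 3 of the triadimefon arrays reached the control range.

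F10 fell by 0.18 with myclobutanil at 24 h (SE 0.03, limma adjusted p = 2.4e-06), and this call held under all 13 alternative settings and whichever array was left out. As deposited the difference was -0.31 (adjusted p = 0.041), and without control array 2 it was -0.20 (adjusted p = 0.23). The call as deposited was kept in 4 of 10 repeats that left out 1 array. With triadimefon F10 differed by -0.04 at 24 h (adjusted p = 0.32). At 14 days the F10 scores were 2.98, 2.95, 2.94, 2.91 and 2.98 in controls, 2.99, 2.84, 2.89, 2.95 and 2.93 with myclobutanil, and 2.90, 2.88, 2.88, 2.94 and 2.87 with triadimefon. The groups overlapped again, with differences of -0.03 and -0.06 that did not pass. The myclobutanil effect on F10 differed between 24 h and 6 h by -0.18 (adjusted p = 0.00093) and between 14 days and 24 h by 0.15 (adjusted p = 0.013).

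F5 codes for factor V, the cofactor of factor X, and it was higher at 24 h with both compounds after normalization. Its scores were 2.09, 2.03, 2.02, 2.04 and 2.10 in controls, 2.21, 2.25, 2.27, 2.32 and 2.24 with myclobutanil, and 2.17, 2.26, 2.26, 2.18 and 2.50 with triadimefon. No treated F5 value fell within the control range. The differences were 0.20 ± 0.05 (adjusted p = 0.0087) and 0.22 ± 0.05 (adjusted p = 0.006), but as deposited they were 0.09 and 0.10, with adjusted p-values of 0.54 and 0.5. F9, the factor IX gene, fell by 0.13 with myclobutanil at 24 h (adjusted p = 0.019; as deposited -0.30, adjusted p = 0.084). The F9 call was lost without control array 3 or myclobutanil array 3 (adjusted p up to 0.078) and under cyclic loess (-0.12, adjusted p = 0.056).

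The anticoagulant and fibrinolytic group held 5 genes, of which 2 fell at 24 h with each compound and 1 rose with triadimefon at 14 days, after quantile normalization. Over all genes 6.03% were lower with myclobutanil and 6.34% with triadimefon at 24 h, and 5.96% were higher with triadimefon at 14 days. Of genes with mean score above 2, 31.9%, 28.3% and 25% were called in these comparisons, in either direction. Plg, which codes for plasminogen, the precursor of the clot-dissolving protease plasmin, fell at 24 h, by 0.12 (adjusted p = 9.9e-06) under myclobutanil and by 0.09 (adjusted p = 0.0008) under triadimefon. Vtn, which codes for the adhesive plasma protein vitronectin, fell by 0.07 (adjusted p = 0.024) and by 0.08 (adjusted p = 0.013). As deposited neither gene passed, with adjusted p-values from 0.32 to 0.45. Under cyclic loess and the common 99th percentile neither was called with either compound: Plg and Vtn differed by -0.06 and -0.05 with myclobutanil on both, and with triadimefon by 0.00 on the first and 0.01 on the second. The direction of both genes with triadimefon depends on the scaling. The Vtn call with myclobutanil was also lost without control array 1 or myclobutanil array 1, 2 or 5 (adjusted p up to 0.078).

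Proc codes for protein C, the protease that inactivates factor V. At 14 days its normalized scores were 3.13, 3.09, 3.05, 3.10 and 3.08 in controls, 3.31, 3.09, 3.07, 3.13 and 3.17 with myclobutanil, and 3.25, 3.22, 3.18, 3.21 and 3.25 with triadimefon. All triadimefon arrays lay above all controls for Proc, and the myclobutanil arrays overlapped with them. Proc rose by 0.13 ± 0.03 with triadimefon (adjusted p = 0.0041), a difference of 0.12 as deposited (adjusted p = 0.49). Serpinc1, the antithrombin gene, and Serpinf2, the antiplasmin gene, were not called.

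Among the 6 protease inhibitor genes, A2m, Itih1 and Itih3 were each called at least once, and Serpina1, Serping1 and Itih4 were not. Over all genes 30.2% were called at least once, and 59.3% of those with mean score above 2. A2m codes for alpha-2-macroglobulin, in the rat a strongly inducible positive acute phase protein, and here it was dim, with a mean score of 0.23. At 24 h its normalized scores were 0.36, 0.47, 0.45, 0.28 and 0.15 in controls, 0.14, 0.20, 0.65, 0.11 and 0.52 with myclobutanil, and -0.02, -0.06, 0.01, -0.09 and -0.19 with triadimefon. The triadimefon arrays all lay below the controls, and the myclobutanil arrays covered the whole control range.

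A2m fell by 0.41 ± 0.12 with triadimefon at 24 h (limma adjusted p = 0.018), and by 0.42 as deposited (adjusted p = 0.023). The call was lost without control array 2 or 3 or triadimefon array 5, with adjusted p-values up to 0.057, and as deposited without control array 2 the difference was -0.37 (adjusted p = 0.094). With myclobutanil A2m differed by -0.02 (adjusted p = 0.95). The 6 h scores of A2m were 0.19, 0.14, 0.06, 0.66 and 0.49 in controls, 0.39, 0.39, 0.01, 0.41 and 0.05 with myclobutanil, and 0.07, 0.37, -0.10, 0.47 and 0.19 with triadimefon. At 14 days they were 0.42, 0.01, 0.04, 0.05 and 0.22, then 0.33, 0.63, 0.12, 0.06 and 0.27, and 0.30, 0.18, 0.32, 0.11 and 0.33 in the same order. The groups overlapped at both of those times, and the triadimefon effect on A2m differed between 14 days and 24 h by 0.51 (adjusted p = 0.036).

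Itih1 and Itih3 code for heavy chains of the inter-alpha-trypsin inhibitors, which bind hyaluronan outside cells. Itih1 at 24 h was 3.46, 3.52, 3.52, 3.54 and 3.47 in controls and 3.44, 3.35, 3.39, 3.37 and 3.45 with myclobutanil. At 14 days it was 3.50, 3.51, 3.53, 3.51 and 3.62 in controls and 3.47, 3.36, 3.38, 3.47 and 3.39 with triadimefon. The treated arrays lay below the controls in both comparisons. Itih1 fell by 0.10 with myclobutanil at 24 h (adjusted p = 0.0092) and by 0.12 with triadimefon at 14 days (adjusted p = 0.0036), and as deposited the differences were -0.27 and -0.16 (adjusted p = 0.18 and 0.45). The myclobutanil call of Itih1 was lost with the common 99th percentile (-0.08, adjusted p = 0.093). Itih3 fell by 0.10 with triadimefon at 14 days (adjusted p = 0.01; as deposited -0.19, adjusted p = 0.51), and its adjusted p under cyclic loess was 0.065.

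The group of acute phase and bacterial sensing genes held Hp, Crp, Lbp, Lcn2 and Cd14. Hp codes for haptoglobin, which binds free haemoglobin, and Lcn2 for lipocalin 2, which binds bacterial iron carriers. Neither passed the test in any comparison. Hp at 24 h was 4.31, 4.28, 4.23, 4.28 and 4.29 in controls, 4.23, 4.22, 4.25, 4.23 and 4.22 with myclobutanil, and 4.27, 4.28, 4.17, 4.28 and 4.28 with triadimefon. The groups overlapped for Hp, with differences of -0.05 (adjusted p = 0.18) and -0.02 (adjusted p = 0.61). At 14 days Hp was 4.26, 4.26, 4.27, 4.28 and 4.23 in controls and 4.33, 4.34, 4.32, 4.38 and 4.19 with myclobutanil. All of these myclobutanil arrays but array 5 lay above every control, and array 5 lay below them. The Hp differences at 14 days were 0.05 with myclobutanil and 0.02 with triadimefon (limma adjusted p = 0.33 and 0.73).

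Lcn2 lay near the middle of each array, with scores at 24 h of -0.20, -0.04, -0.10, -0.11 and 0.04 in controls, -0.09, -0.01, 0.15, -0.05 and -0.10 with myclobutanil, and -0.03, 0.03, -0.01, 0.26 and -0.18 with triadimefon. The 3 groups overlapped. Lcn2 differences in the 6 comparisons ran from -0.06 to 0.13, the smallest adjusted p was 0.41, and the 95% intervals reached from -0.20 to 0.27.

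Crp codes for C-reactive protein, which in the rat is abundant without inflammation. At 6 h its normalized scores were 3.97, 3.93, 3.96, 3.93 and 3.92 in controls and 4.0, 4.02, 4.08, 4.09 and 4.05 with triadimefon. At 24 h they were 3.87, 3.94, 3.97, 3.97 and 3.93 in controls and 4.05, 4.14, 4.0, 4.04 and 4.11 with triadimefon. At both times the triadimefon arrays lay above all controls.

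Crp rose by 0.11 with triadimefon at 6 h (adjusted p = 0.047) and by 0.13 at 24 h (adjusted p = 0.0043). The 6 h call was lost in all 10 repeats that left out 1 array, with adjusted p-values up to 0.11, and under cyclic loess and the common 99th percentile (adjusted p = 0.36 and 0.74). As deposited the differences were 0.06 (adjusted p = 0.94) and -0.01 (adjusted p = 0.98), so the direction at 24 h depends on the normalization. Crp with myclobutanil was 3.96, 4.01, 4.02, 3.85 and 4.09 at 6 h, 3.97, 3.91, 3.97, 4.04 and 4.01 at 24 h and 3.88, 3.89, 3.98, 3.87 and 3.94 at 14 days. These arrays overlapped with the controls of each time, and the differences were 0.04, 0.04 and -0.08, none past the test.

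Lbp codes for lipopolysaccharide-binding protein, which hands lipopolysaccharide to CD14. At 14 days its normalized scores were 1.40, 1.22, 1.10, 1.21 and 1.37 in controls, 1.70, 1.37, 1.44, 1.73 and 1.36 with myclobutanil, and 1.65, 1.68, 1.67, 1.76 and 1.80 with triadimefon. The lowest triadimefon array lay above the highest control. Of the myclobutanil arrays, 2 were far above the controls and 2 were within their range.

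Lbp rose by 0.45 ± 0.07 with triadimefon at 14 days (limma adjusted p = 2e-05) and by 0.50 as deposited (adjusted p = 8.5e-05), and the call held under all 13 settings and every omission of 1 array on both scales. With myclobutanil it rose by 0.26 ± 0.07 (adjusted p = 0.043) and by 0.35 as deposited (adjusted p = 0.018). This call was lost without control array 2, 3 or 4 or myclobutanil array 1 or 4, with adjusted p-values up to 0.19, and with the common 99th percentile (0.28, adjusted p = 0.097). The earlier Lbp scores gave no call. They were 1.44, 1.24, 1.34, 1.46 and 1.31 in controls, 1.37, 1.23, 1.45, 1.31 and 1.37 with myclobutanil and 1.02, 1.21, 1.35, 1.37 and 1.02 with triadimefon at 6 h. At 24 h they were 1.32, 1.31, 1.32, 1.36 and 1.44, then 1.33, 1.47, 1.47, 1.58 and 1.44, and 1.35, 1.41, 1.46, 1.49 and 1.49 in the same order. The triadimefon effect on Lbp was 0.36 higher at 14 days than at 24 h (adjusted p = 0.012).

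Cd14 codes for the receptor that receives lipopolysaccharide from Lbp. Its normalized scores at 6 h were 1.62, 1.35, 1.49, 1.66 and 1.52 in controls, 1.59, 1.76, 1.77, 1.72 and 1.38 with myclobutanil, and 1.13, 1.26, 1.39, 1.45 and 1.68 with triadimefon. At 24 h they were 1.92, 1.89, 1.86, 1.96 and 1.96 in controls, 1.96, 1.91, 2.12, 1.94 and 2.00 with myclobutanil, and 1.92, 1.68, 1.85, 1.47 and 1.61 with triadimefon. At 14 days the controls had 1.81, 1.50, 1.50, 1.86 and 1.75, the myclobutanil arrays 2.09, 1.95, 2.09, 1.94 and 1.67, and the triadimefon arrays 1.95, 2.22, 2.02, 1.92 and 2.26. The triadimefon arrays lay below or within the controls at 24 h and above all of them at 14 days.

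Cd14 rose by 0.39 ± 0.09 with triadimefon at 14 days (adjusted p = 0.0056), and by 0.43 as deposited (adjusted p = 0.0063). That call held under all 13 settings and whichever array was left out. With triadimefon at 24 h it differed by -0.21 (adjusted p = 0.16), a difference that passed only as deposited (-0.34, adjusted p = 0.027) and not without control array 2 (-0.28, adjusted p = 0.13). The triadimefon effect on Cd14 was 0.60 higher at 14 days than at 24 h (adjusted p = 0.0026), which also held under all 13 settings. With myclobutanil at 14 days Cd14 differed by 0.26 (adjusted p = 0.16), and by 0.39 as deposited (adjusted p = 0.05), a call kept in 2 of 10 repeats that left out 1 array. Among the controls alone, 5.87% of all genes differed between 24 h and 6 h, and Cd14 was the only member called, 0.39 higher at 24 h (adjusted p = 0.0075). That call was lost with the ending of the array file name as a covariate and among arrays of ending 11 alone.

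Because macrophages also express Cd14 and other members, 13 markers of Kupffer cells and macrophages were read beside it. With myclobutanil at 24 h 10 of the 13 fell, Clec4f and Cd5l most, by 0.68 and by 0.44, and the mean of the list ran from 0.87 to 1.04 on the treated arrays and from 1.12 to 1.34 on the controls. Over all genes 6.03% were lower in that comparison. With triadimefon 0 of 13 passed at 24 h, with 0 at an unadjusted p under 0.05, and 0 of 13 passed at 14 days, with 3 at an unadjusted p under 0.05. At 14 days the list mean was 1.04 to 1.28 in controls, 0.94 to 1.12 with myclobutanil, where Clec4f and C1qa fell, and 1.07 to 1.24 with triadimefon. Clec4f and C1qa did not pass as deposited at 14 days (limma adjusted p = 0.32 and 0.38). Markers of other cells also moved. Epcam, a bile duct marker, rose at 14 days by 0.40 with myclobutanil (adjusted p = 1.6e-05) and by 0.51 with triadimefon (adjusted p = 2.5e-08), and it passed as deposited too; the other 4 bile duct markers passed nowhere. Of 7 endothelial markers, Pecam1, F8 and Lyve1 fell with myclobutanil at 24 h, by 0.10 to 0.14, and Pecam1 rose by 0.14 with triadimefon at 14 days (adjusted p = 0.0036). Cd4, a lymphocyte marker, fell by 0.13 with myclobutanil at 24 h, the red cell marker Ahsp by 0.12 with triadimefon at 24 h, and the stellate cell marker Acta2 by 0.15 with triadimefon at 14 days. The Ahsp call was not made as deposited (limma adjusted p = 0.071). Whether any of these markers had a part in the results with either compound was not tested. In RNA of whole liver, fewer cells of a type and less RNA per cell cannot be told apart.

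**Figure D4:**
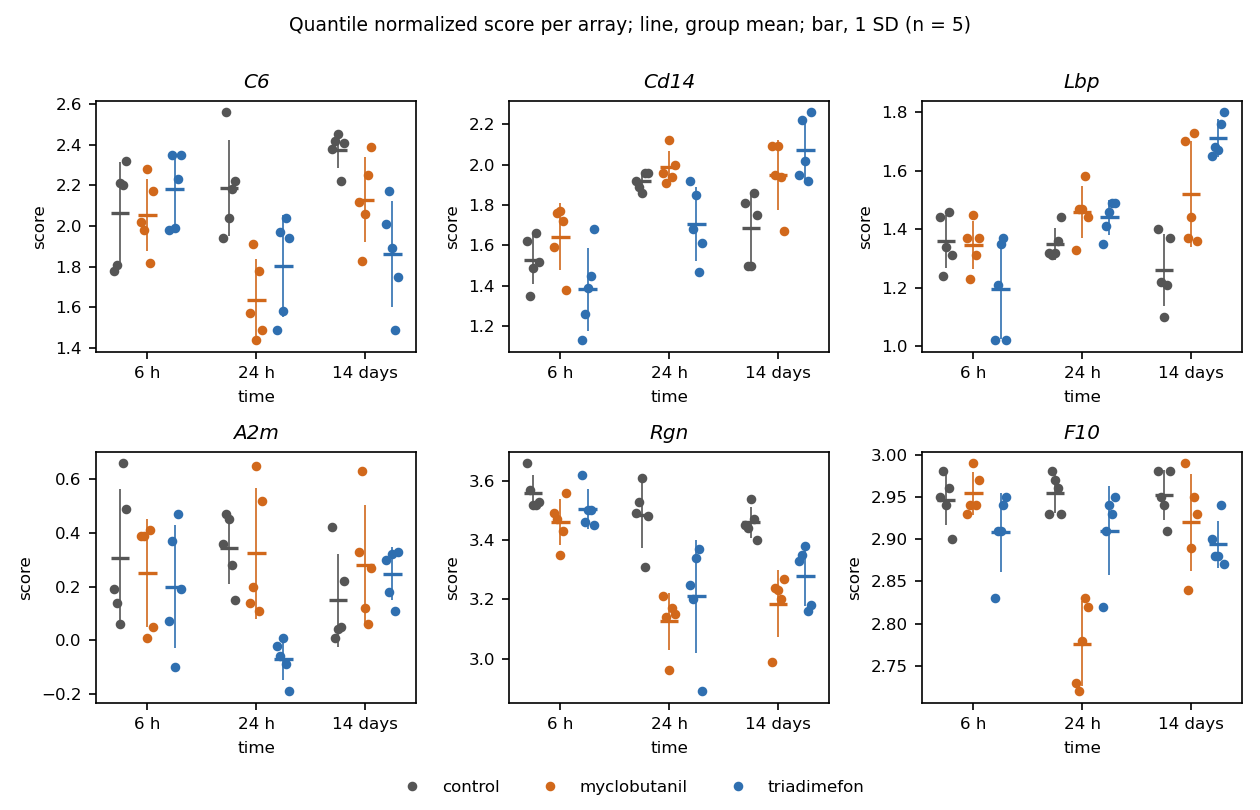
Quantile normalized score of the 6 genes called on both scales, on each array (vertical axes, score, each panel with its own range) by time (horizontal axes); points are arrays, lines group means and bars 1 SD (n = 5), with colours for control, myclobutanil and triadimefon. Lbp and Cd14 with triadimefon lie above all controls at 14 days, and C6 and F10 with myclobutanil lie below all controls at 24 h.

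Of the 6 measured complement genes, C6 and C5 were called and C3, C4bpa, C9 and Cfi were not. The share called at least once was 30.2% over all genes and 59.3% over genes with mean score above 2. C6 codes for a component that joins C5b in building the membrane attack complex. At 24 h its normalized scores were 1.94, 2.56, 2.04, 2.18 and 2.22 in controls, 1.57, 1.91, 1.44, 1.78 and 1.49 with myclobutanil, and 1.49, 1.97, 1.58, 2.04 and 1.94 with triadimefon. At 14 days they were 2.38, 2.42, 2.45, 2.22 and 2.41 in controls, 2.12, 1.83, 2.06, 2.25 and 2.39 with myclobutanil, and 2.01, 2.17, 1.89, 1.49 and 1.75 with triadimefon. The myclobutanil arrays lay below all controls at 24 h and the triadimefon arrays at 14 days, while the other 2 treated groups overlapped with their controls.

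C6 fell by 0.55 ± 0.13 with myclobutanil at 24 h (limma adjusted p = 0.0026), the largest fall among the members, and by 0.67 as deposited (adjusted p = 0.0035). Both held whichever array was left out, and as deposited without control array 2 the difference was -0.49 (adjusted p = 0.027). With triadimefon at 24 h the difference was -0.38 (adjusted p = 0.052), and it passed only as deposited (-0.52, adjusted p = 0.027), not without control array 2 (-0.35, adjusted p = 0.18). At 14 days C6 fell by 0.52 ± 0.13 with triadimefon (adjusted p = 0.0084) and by 0.48 as deposited (adjusted p = 0.046), a call that was kept in 10 of 10 repeats that left out 1 array after normalization and in 2 of 10 as deposited. With myclobutanil at 14 days it differed by -0.25 (adjusted p = 0.4).

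Start regions are shown for members called on both scales, in order of their largest difference, where a region was listed. C6 comes first, with the largest difference among the members. It alone of the start regions shown holds a searched motif, which was not a reason for the choice. The sequences come from the RefSeq promoter table of the rat assembly GRCr8, 250 bases before to 50 after each gene's start, 5′ to 3′ on the gene's strand. In C6 (chr2:55573383-55573682, plus strand) the capitals mark a match to the C/EBP motif TTGCNNAA, found on the reverse strand and beginning 176 bases before the start, and a match to the TATA motif TATAAA beginning at base 23 of the transcribed part.
C6: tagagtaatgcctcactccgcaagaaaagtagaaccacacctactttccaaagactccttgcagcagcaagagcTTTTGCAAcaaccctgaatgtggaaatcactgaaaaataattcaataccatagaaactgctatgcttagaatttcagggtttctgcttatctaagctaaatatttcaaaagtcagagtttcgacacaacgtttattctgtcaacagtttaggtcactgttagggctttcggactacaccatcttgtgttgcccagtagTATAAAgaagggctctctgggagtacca

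For comparison, the start regions of Cd14 (chr18:28611109-28611408, minus strand), Rgn (chrX:4187908-4188207, minus strand) and F10 (chr16:83190231-83190530, minus strand) hold none of the searched letters and have no capitals.
Cd14: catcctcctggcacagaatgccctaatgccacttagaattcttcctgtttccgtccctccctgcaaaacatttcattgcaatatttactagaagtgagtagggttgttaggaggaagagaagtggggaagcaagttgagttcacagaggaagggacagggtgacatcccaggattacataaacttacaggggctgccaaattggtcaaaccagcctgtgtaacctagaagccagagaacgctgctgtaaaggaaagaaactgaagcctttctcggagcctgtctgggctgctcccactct
Rgn: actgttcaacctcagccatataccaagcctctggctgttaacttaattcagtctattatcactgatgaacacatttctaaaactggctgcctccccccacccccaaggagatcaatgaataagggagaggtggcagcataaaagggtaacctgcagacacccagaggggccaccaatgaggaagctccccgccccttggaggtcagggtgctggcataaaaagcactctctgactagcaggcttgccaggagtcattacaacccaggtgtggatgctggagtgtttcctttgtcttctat
F10: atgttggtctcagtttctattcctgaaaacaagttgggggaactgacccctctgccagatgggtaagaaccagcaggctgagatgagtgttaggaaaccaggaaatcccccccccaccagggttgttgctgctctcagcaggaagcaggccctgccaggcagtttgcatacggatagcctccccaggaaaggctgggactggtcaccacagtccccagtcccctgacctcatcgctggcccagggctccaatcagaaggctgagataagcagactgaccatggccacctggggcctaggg

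Over 27457 start regions of the same length, searched on both strands, the C/EBP motif TTGCNNAA was in 10.5%, and it was in 12 of the 32 members with a region in the table (37.5%). The STAT motif TTCNNNGAA was in 8.68% of all regions and in 6 of 32 members (18.8%). The HNF1 motif GTTAATNAT was in 0.75% of all regions and in 5 of 32 members (15.6%), and the HNF4 motif CAAAGTCCA was in 0.375% and in 0 of 32. The TATA motif TATAAA, added to the search after the sequences had been read, was in 14.3% of all regions and in 6 of 32 members (18.8%). The motifs were searched separately, and matches of different motifs may share bases. A match is a description of the letters and not a binding site. Lbp and A2m are not in the table.

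C5 codes for the component that is cut to release the attractant C5a and the C5b that C6 binds. At 24 h its normalized scores were 2.50, 2.41, 2.39, 2.47 and 2.54 in controls, 2.65, 2.50, 2.69, 2.56 and 2.52 with myclobutanil, and 2.75, 2.70, 2.60, 2.81 and 2.59 with triadimefon. The triadimefon arrays lay above all controls and the myclobutanil arrays overlapped with them. C5 rose by 0.23 ± 0.05 with triadimefon (adjusted p = 0.00097), but the difference as deposited was 0.09 (adjusted p = 0.56).

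Rgn, the gene of the cytosolic enzyme regucalcin, was lower in treated livers at 24 h with both compounds and at 14 days with myclobutanil. Its normalized scores at 24 h were 3.49, 3.53, 3.61, 3.31 and 3.48 in controls, 3.21, 3.14, 2.96, 3.17 and 3.15 with myclobutanil, and 3.25, 3.20, 3.34, 3.37 and 2.89 with triadimefon. At 14 days they were 3.45, 3.44, 3.54, 3.47 and 3.40 in controls, 2.99, 3.24, 3.23, 3.20 and 3.27 with myclobutanil, and 3.33, 3.35, 3.38, 3.16 and 3.18 with triadimefon. Treated arrays lay below all controls in 3 of these 4 comparisons, the exception being triadimefon at 24 h.

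Rgn fell by 0.36 ± 0.06 with myclobutanil at 24 h (limma adjusted p = 8.4e-05) and by 0.52 as deposited (adjusted p = 0.012). The normalized call held under all 13 settings and whichever array was left out, and as deposited without control array 2 the difference was -0.38 (adjusted p = 0.077). With triadimefon at 24 h Rgn fell by 0.27 ± 0.06 (adjusted p = 0.0033) and by 0.43 as deposited (adjusted p = 0.039), or -0.30 without control array 2 (adjusted p = 0.23). The normalized call was lost with only the groups compared. The call as deposited was kept in 4 of 10 repeats that left out 1 array. At 14 days Rgn fell by 0.27 with myclobutanil (adjusted p = 0.018), a call lost without myclobutanil array 1 (adjusted p = 0.072) and not made as deposited (-0.12, adjusted p = 0.75). The triadimefon difference at 14 days was -0.18 (adjusted p = 0.063).

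Tests of the change of each effect between times gave few members. The myclobutanil effect differed between 24 h and 6 h for 2 of 41 genes, where 5.92% of all genes were called, and between 14 days and 24 h for 4, where 5.12% were called. The triadimefon effect differed for 3 and for 5 genes, where 5.02% and 13.6% of all genes were called. Between the controls at 14 days and 24 h 0 of 41 members were called by limma, with 3 at an unadjusted p under 0.05, and 0.429% of all genes were called. Leaving out 1 array changed these counts, and the 5 genes for triadimefon at 14 days against 24 h became 4 to 7. The 2 genes for myclobutanil at 24 h against 6 h became 4 without myclobutanil array 5 of 24 h, and the 4 at 14 days against 24 h became 2 without control array 2 or myclobutanil array 1 or 2 of 24 h, or myclobutanil array 1 of 14 days. The 3 genes for triadimefon at 24 h against 6 h became 1 without triadimefon array 1 of 6 h or array 5 of 24 h, and 6 without array 4 of 24 h. The members called in these tests were F10, Plg, Ambp and Proc for myclobutanil and F5, Vtn, C5, Proc, A2m, Crp, Lbp and Cd14 for triadimefon.

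The signalling genes through which cytokines reach the acute phase genes were read from a list of 27, of which 25 were measured. At 6 h 2 were higher and 1 lower with myclobutanil, and 1 was higher and 1 lower with triadimefon. Over all genes 1.09% were higher and 0.703% lower with myclobutanil, and 2.5% and 1.29% with triadimefon. Il1r1, the interleukin-1 receptor gene, rose by 0.33 (limma adjusted p = 0.021) and by 0.28 (adjusted p = 0.047), and Stat3 rose by 0.30 with myclobutanil (adjusted p = 0.043). Cebpa, the gene of the liver factor C/EBP alpha, fell by 0.30 with myclobutanil (adjusted p = 0.042), and Il1rap, which codes for the accessory chain of the interleukin-1 receptor, fell by 0.21 with triadimefon (adjusted p = 0.022). None of these 6 h calls was made as deposited, and at 6 h compound and ending of the array file name are partly confounded.

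At 24 h 2 signalling genes were higher and 3 lower with myclobutanil, and 4 were higher and 0 lower with triadimefon. Over all genes 8.24% were higher and 6.03% lower with myclobutanil, and 5.89% and 6.34% with triadimefon. As deposited none of these 4 triadimefon calls was made. With myclobutanil Irak1, a kinase gene of interleukin-1 and Toll-like receptor signalling, rose by 0.31 (adjusted p = 3.2e-10) and Tnfrsf1a, the tumour necrosis factor receptor gene, rose by 0.17 (adjusted p = 0.00071; as deposited 0.10, adjusted p = 0.33). Nfkbia, the gene of an NF-kappa-B inhibitor, fell by 0.26 (adjusted p = 0.028), and Cebpd, of mean score 0.09, fell by 0.13 (adjusted p = 0.032). The remaining lower gene, the kinase gene Jak2 of mean score 0.06, fell by 0.11 (adjusted p = 0.0019), and by 0.11 as deposited (adjusted p = 0.0025). Irak1, Nfkbia and Cebpd also passed as deposited. With triadimefon Il1r1 rose by 0.35 (adjusted p = 0.0029) and Tnfrsf1a rose by 0.25 (adjusted p = 5.4e-06). At 14 days 1 gene was higher with myclobutanil, Irak1 by 0.16 (adjusted p = 0.0011). With triadimefon 2 were higher, Nfkbia by 0.31 (adjusted p = 0.012) and Irak1 by 0.18 (adjusted p = 4.2e-05), and none was lower at that time. All 3 calls at 14 days passed as deposited. Over all genes 1.02% were higher and 0.556% lower with myclobutanil at that time, and 5.96% and 5.39% with triadimefon.

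A further list of 62 plasma protein genes, with 52 measured, was read beside the members. Calls after normalization, higher and lower, were 0 and 0 at 6 h, 3 and 14 at 24 h and 1 and 5 at 14 days with myclobutanil. With triadimefon they were 2 and 0, 3 and 10, and 4 and 6. Among genes with mean score above 2, the shares called in either direction with myclobutanil were 5.78% at 6 h, 31.9% at 24 h and 6.03% at 14 days. With triadimefon these shares were 11.9%, 28.3% and 25%. A1bg, a plasma glycoprotein gene, was dim, with a mean score of 0.06 (the 37.4 percentile of genes). It rose by 0.62 with triadimefon at 6 h (limma adjusted p = 0.011), and by 0.63 as deposited (adjusted p = 0.022). At that time compound and ending of the array file name are partly confounded. At 24 h Fcna, a ficolin gene of the lectin pathway of complement that is also expressed by macrophages, fell by 0.52 with myclobutanil (adjusted p = 1.5e-05), and Cfd, the factor D gene, fell by 0.38 (adjusted p = 4.6e-05). Igfbp2, which codes for a binding protein of insulin-like growth factors, rose by 0.34 (adjusted p = 0.00019) under myclobutanil and by 0.24 (adjusted p = 0.013) under triadimefon.

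With triadimefon at 24 h the lowest of these genes were Mug1, a gene of the alpha-2-macroglobulin family, which fell by 0.33 (adjusted p = 0.0017), and Afm, the vitamin E carrier gene of the albumin family, which fell by 0.21 (adjusted p = 0.0019; as deposited -0.36, adjusted p = 0.11). At 14 days Fcna fell by 0.37 with myclobutanil (adjusted p = 0.015; as deposited -0.31, adjusted p = 0.12) and Cfd fell by 0.32 (adjusted p = 0.0057), while Serpina10 rose by 0.17 (adjusted p = 0.0053; as deposited 0.31, adjusted p = 0.13). With triadimefon Apoa4, an apolipoprotein gene, fell by 0.94 at 14 days (adjusted p = 3.8e-07; as deposited -0.94, adjusted p = 0.002), and Apoc2 fell by 0.32 (adjusted p = 1.8e-06; as deposited -0.35, adjusted p = 0.12). Pros1, which codes for protein S, the cofactor of protein C, rose by 0.20 (adjusted p = 1.9e-06). The other calls of these plasma genes named at 24 h and 14 days passed as deposited.

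**Figure D5:**
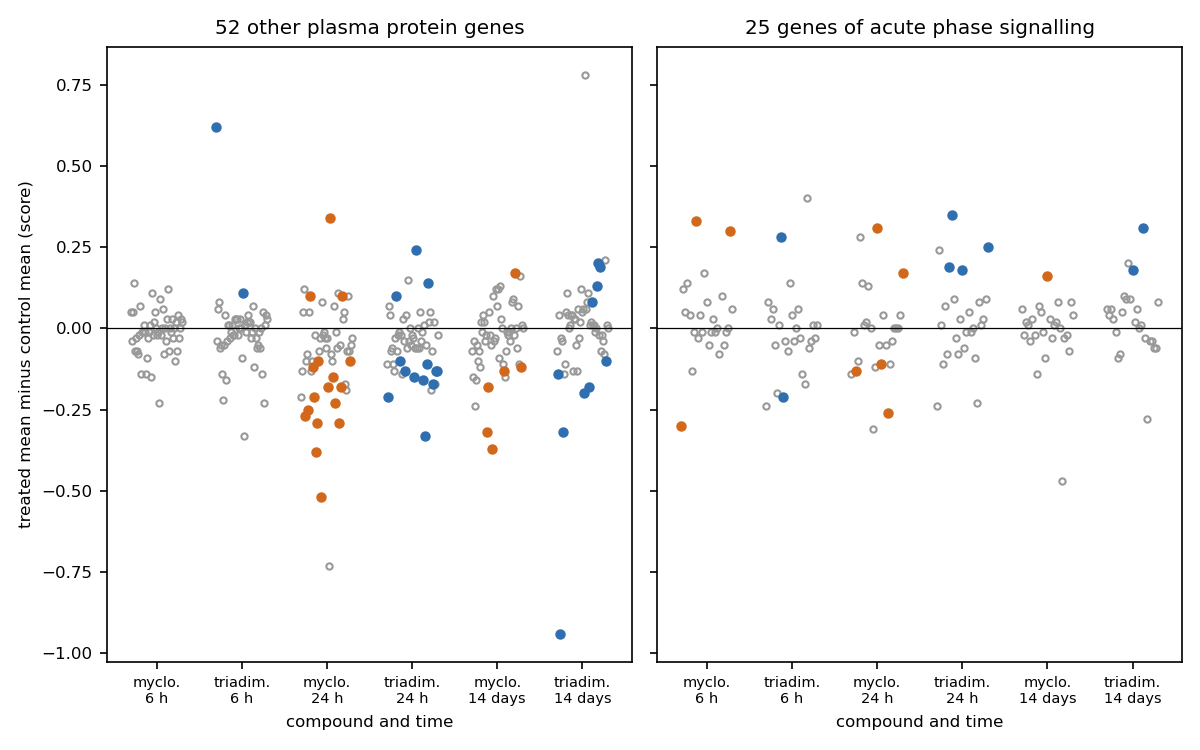
Difference in quantile normalized score between treated and control means (vertical axes, score units) for 52 other plasma protein genes (left) and 25 acute phase signalling genes (right) in the 6 comparisons (horizontal axes); coloured points passed an adjusted p of 0.05, orange for myclobutanil and blue for triadimefon, and open grey points did not. The lowest coloured point is Apoa4 at -0.94 with triadimefon at 14 days, and the highest is A1bg at 0.62 with triadimefon at 6 h.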

How the data were processed

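The authors deposited 1 score for each probe set on each array, on a log-type scale whose base and processing are not given in the sources used here. Scores ran from -0.98 to 5.69 and array medians from -0.011 to 0.033. The 57 control probe sets were left out and 31042 tested, and no column of another sample was used (0 such columns). Genes were named from the platform annotation. Scores were quantile normalized and fitted with limma 3.58.1 in R 4.3.3, with 1 mean per group over all 45 arrays and Benjamini-Hochberg adjustment over all probe sets; a gene was called at an adjusted p under 0.05. The script was tested on simulated data. The number of arrays limits the precision.

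Named members were those called both after normalization and as deposited, the 3 highest and 3 lowest calls of each treatment comparison and a panel (Crp, Orm1, A2m, Hp, Lcn2, Fga, Fgb, Fgg, Alb). All other called members are given by their differences. Genes of the further lists were named as the 2 highest and 2 lowest calls of a comparison, and Jak2 was named in addition. The members and lists were chosen with earlier results of these data known. Alternatives are listed in the closing section; scaling to a common 99th percentile, repeating the called members that were not named, and leaving arrays out of the values as deposited, were added after the data were seen. Doses differ between the compounds, so they were set side by side without a test.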

Additional observations from a re-analysis of the deposited data

Results flagged for a closer look

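In 6 of the 162 groups of 5 arrays checked over the named members, 1 array lay far from the other 4; chance gives this in about 1 group in 20. Fgb was 4.11 on control array 3 at 6 h, where the others ran from 4.27 to 4.29. F5 was 2.50 on triadimefon array 5 at 24 h, above the 2.17 to 2.26 of the others. Itih1 was 3.62 on control array 5 at 14 days, above 3.50 to 3.53. Hp was 4.17 on triadimefon array 3 at 24 h, below 4.27 to 4.28. Rgn was 2.96 on myclobutanil array 3 at 24 h, below 3.14 to 3.21, and 2.99 on myclobutanil array 1 at 14 days, below 3.20 to 3.27.

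An effect that differed between times, by limma's test of that difference, was found in 14 cases. For the myclobutanil effect at 24 h against 6 h these were F10 (-0.18, adjusted p = 0.00093) and Plg (-0.10, adjusted p = 0.017). At 14 days against 24 h they were F10 (0.15, adjusted p = 0.013), Proc (0.15, adjusted p = 0.033), Ambp (0.11, adjusted p = 0.025) and Plg (0.10, adjusted p = 0.028). For the triadimefon effect at 24 h against 6 h they were F5 (0.29, adjusted p = 0.021), C5 (0.27, adjusted p = 0.013) and Vtn (-0.10, adjusted p = 0.045). At 14 days against 24 h they were Cd14 (0.60, adjusted p = 0.0026), A2m (0.51, adjusted p = 0.036), Lbp (0.36, adjusted p = 0.012), Proc (0.20, adjusted p = 0.0023) and Crp (-0.15, adjusted p = 0.017). Of these, only Cd14 kept its call under all 13 alternative settings.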

How the results depend on the processing

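The 48 calls of members (33 in treatment comparisons, 1 between control times and 14 between times of an effect) were repeated under 13 settings. The numbers that kept direction and side of the threshold were 13 for values as deposited, 14 for deposited values shifted to a common median, 30 for cyclic loess, 28 for scaling to a common 99th percentile and 48 for probe sets of mean above the median level. They were 38 with only the groups compared, 39 with trend and robust moderation, 45 with array weights, 43 with the ending of the array file name as a covariate, 38 with arrays of ending 11 alone, 47 with the mean of all probe sets of a gene and 26 at an adjusted p under 0.01. The covariate absorbs control arrays 2 and 3 of 6 h, which are alone in their endings; what the ending means is not given in the labels. Deviations of arrays with the same replicate number correlated from -0.161 to 0.236 over 30 pairs, 8 of them over 0.1, so the numbers were taken only to name arrays; with the replicate block 47 of the 48 calls were the same and 1, Apoc3 with triadimefon at 14 days, was lost (adjusted p = 0.055). The cause of these changes was not tested.

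Counts of called members moved as follows. With triadimefon at 6 h the count of 1 became 0 as deposited, after the median shift, with cyclic loess, with the 99th percentile, with trend and robust moderation, with the ending as covariate, with ending 11 alone and at 0.01, and it was 0 to 0 when 1 array was left out. With myclobutanil at 24 h 12 became 3 as deposited and 3 after the median shift, 7 with cyclic loess and 5 with the 99th percentile, and ran from 10 to 12 when 1 array was left out. With triadimefon at 24 h 9 became 4, 4 and, with the 99th percentile, 5 (7 to 11 with 1 array left out). With myclobutanil at 14 days 2 became 1 with the 99th percentile, only the groups compared, array weights, the ending as covariate or ending 11 alone, and 0 at 0.01 (0 to 3). With triadimefon at 14 days 9 became 3 as deposited and 3 after the median shift (8 to 12). For controls at 24 h against 6 h 1 became 5 with cyclic loess and 0 with the ending as covariate or ending 11 alone, and for controls at 14 days against 24 h 0 became 1 with the mean of all probe sets.

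For the myclobutanil effect at 24 h against 6 h 2 became 0 as deposited and after the median shift, and 1 with the 99th percentile, trend and robust moderation, ending 11 alone or 0.01 (2 to 4). At 14 days against 24 h 4 became 0 as deposited, 1 after the median shift, 2 with cyclic loess, 0 with the 99th percentile, 2 with only the groups compared, 1 with trend and robust moderation and 0 at 0.01 (2 to 4). For the triadimefon effect at 24 h against 6 h 3 became 0 as deposited, after the median shift, with ending 11 alone and at 0.01, and 5 with the mean of all probe sets (1 to 6). At 14 days against 24 h 5 became 3 as deposited and 3 after the median shift, 8 with cyclic loess, 9 with the 99th percentile and 2 at 0.01 (4 to 7).

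Direction turned for Plg and Vtn with triadimefon at 24 h, to 0.0083 and 0.0059 with the 99th percentile, and for Crp with triadimefon at 24 h, to -0.011 as deposited and -0.0161 after the median shift. It turned for the myclobutanil effect on Plg at 24 h against 6 h, to 0.0014 with cyclic loess and 0.0281 with the 99th percentile, and on Ambp at 14 days against 24 h, to -0.0265 with the 99th percentile. For the triadimefon effect on Vtn at 24 h against 6 h it turned to 0.0472 with cyclic loess and 0.0833 with the 99th percentile. Signal over background is not given by the scores, and the brightest genes are limited by the rank normalization.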

Other observations

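Kng1 and Cfb have no probe set of their own. The probe set shared by Kng1, Kng2l1 and Kng2, the kininogen genes, had a mean score of 3.62 and differences from -0.08 to 0.04 in the 6 comparisons, none past the test. Of the 4 probe sets shared by Cfb and C2, which code for the complement proteases factor B and C2, 1 of mean score 1.49 rose by 0.12 with triadimefon at 14 days (limma adjusted p = 0.022; as deposited 0.18, adjusted p = 0.036). The other 3 did not pass there.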
